A study of Mus musculus with 3 samples.

Results

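The SIX-family, EYA and DACH genes encode a small network of nuclear proteins that recurs in the development of sense organs, kidney and muscle. The members described here are the 8 mouse genes Six2, Six4, Eya1, Eya2, Eya3, Eya4, Dach1 and Dach2, chosen by name out of 21887 protein-coding genes. Every CUT&Tag peak within 1 kb of an outer end of one of these genes, inside it, or within 50 kb of it on either side (mm10) was taken as a member peak, and the gene with its 50 kb flanks is called its locus. This rule gave 45 of 33035 CHD7 peaks and 134 of 155548 SOX2 peaks. No locus of a member overlapped that of another.

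SIX-family proteins are homeodomain transcription factors that bind DNA. EYA proteins bind no DNA themselves: they are protein phosphatases that attach to SIX-family proteins and act as transcriptional coactivators. DACH proteins, relatives of the SKI and SNO proto-oncogene products, act mostly as corepressors in the same complexes. In the ear, loss of Eya1 stops development at the otic vesicle and its human counterpart is mutated in branchio-oto-renal syndrome, while mutations of human EYA4 cause a dominant hearing loss.

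The peaks came from wild-type mouse otocysts, the epithelial vesicles that become the inner ear, dissected at E10.5 (embryonic day). Cells of 34 otocysts were pooled, separated with Accutase and split into 3 samples, which received an antibody against the chromatin remodeler CHD7, an antibody against the HMG-box transcription factor SOX2, or no primary antibody. In CUT&Tag the antibody leads the Tn5 transposase to nearby DNA, which is then cut and sequenced. There was 1 library per antibody, and the library without primary antibody is not analysed here. Because otocysts were pooled, a peak cannot be assigned to a cell type within the otocyst.

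With 1 library each there is no replicate check, and the members were chosen with earlier results known, so the values below are descriptions set beside the same values over all genes or peaks, with no test. The median width was 950 bases in the CHD7 list and 650 in the SOX2 list. Each peak has a total signal (coverage summed over its bases) given by the authors, which was used only to rank peaks within 1 list, rank 1 being the highest. The smallest total signal was 433 in the CHD7 list and 733 in the SOX2 list, and read depth is unknown, so a missing peak means that none was listed there and not that the protein was absent. A peak in turn marks signal near the antibody and does not by itself show direct binding. Of 10 marker genes of the otocyst, 6 had both proteins at an end, against 28.3% of all protein-coding genes. These were Dlx5, Hmx3, Gbx2, Lmx1a, Tbx2 and Sox10. Gata3 had SOX2 alone, and Pax2, Pax8 and Oc90 had neither. Peaks do not measure expression.

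CHD7 lay at an end of 4 of the 8 genes (Six2, Six4, Dach1, Dach2), where 30.8% of all protein-coding genes had such a peak. SOX2 lay at an end of 6 (the same 4, Eya1 and Eya4), against 59.7% of all genes. Both were present at the 4 genes with CHD7, against 28.3% of all genes. The EYA and DACH members are long, and over the 2916 protein-coding genes of at least 85.7 kb, the length of Eya3, 36.4% had CHD7 and 69.2% had SOX2 at an end. Eya2 and Eya3 had neither. Each end peak lay at the side of the gene where its annotated start is, for the 5 of these genes whose start sites and strand are in the RefSeq promoter table. The table holds 6 of the members, all but Eya1 and Eya2, for which no strand was used.

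The sequence before the start site is shown for members that stand for different arrangements of peaks. It was taken from RefSeq (build GRCm38.p6, also called mm10) and is printed 5′ to 3′ in the direction of transcription. At Six2 (chr17:85688255-85688504, minus strand) peaks of both lists covered all 250 bases. At Dach1 (chr14:98169766-98170015, minus strand) CHD7 covered all of them and SOX2 none. Dach2 has 2 annotated starts. SOX2 covered 159 of the 250 bases before the outer start (chrX:113297260-113297509, plus strand) and CHD7 none of them, whereas both lists covered the bases before the inner start, of which the last 30 are shown (chrX:113298226-113298255, plus strand). At Eya3 (chr4:132638796-132639045, plus strand) there was no peak of either list. Over 21263 windows of protein-coding genes, from 250 bases before to 50 after the start, 27.3% had a CHD7 peak and 43.3% a SOX2 peak. In the Six2 line and that of the inner Dach2 start, capitals mark bases within the 50 of highest signal, which were the same bases in the CHD7 peak and in a SOX2 peak, for Six2 the narrower of 2. In the Dach1 line capitals mark the 50 bases of highest CHD7 signal. Capitals in the lines of Eya3 and the outer Dach2 start mark a SOX word.
Six2: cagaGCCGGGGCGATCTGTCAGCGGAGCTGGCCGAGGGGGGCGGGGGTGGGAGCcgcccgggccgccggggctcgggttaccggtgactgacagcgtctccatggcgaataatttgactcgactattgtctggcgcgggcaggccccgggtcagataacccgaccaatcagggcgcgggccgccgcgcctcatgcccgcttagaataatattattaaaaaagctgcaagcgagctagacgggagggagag
Dach1: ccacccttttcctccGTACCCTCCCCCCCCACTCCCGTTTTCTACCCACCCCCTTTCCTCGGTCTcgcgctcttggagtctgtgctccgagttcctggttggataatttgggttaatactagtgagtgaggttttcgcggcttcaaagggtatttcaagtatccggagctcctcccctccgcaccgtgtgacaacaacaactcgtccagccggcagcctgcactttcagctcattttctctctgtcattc
Dach2, outer start: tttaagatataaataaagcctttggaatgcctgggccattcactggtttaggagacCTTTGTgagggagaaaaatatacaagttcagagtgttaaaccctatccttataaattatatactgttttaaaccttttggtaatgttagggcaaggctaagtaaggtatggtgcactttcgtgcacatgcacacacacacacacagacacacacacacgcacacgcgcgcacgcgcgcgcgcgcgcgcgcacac
Dach2, inner start: GGGTCGAGGCTGCTCACAGTGTGTAgggtg
Eya3: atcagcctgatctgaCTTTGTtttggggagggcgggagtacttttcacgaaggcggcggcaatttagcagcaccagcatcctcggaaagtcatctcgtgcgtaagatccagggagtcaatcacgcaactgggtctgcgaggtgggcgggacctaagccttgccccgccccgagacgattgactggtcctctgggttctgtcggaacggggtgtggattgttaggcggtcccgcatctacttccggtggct

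The 250 bases before each start were searched on both strands for the SOX core words ACAAAG and ACAATG, and for the SIX-family words TCAGGTTTC (the MEF3 element) and TGATAC. A match is a description of letters only, and no match overlapped another. A SOX word is present in 22.8% of these windows over protein-coding genes, and a SIX-family word in 4.23%. Among the 9 windows of the 6 members a SOX word was found in 2, both times ACAAAG on the strand opposite to transcription: 235 bases upstream at Eya3, where no peak was listed, and 194 bases upstream of the outer start of Dach2, just outside the SOX2 peak. A SIX-family word was found in 1 window. It was the MEF3 element, on the strand opposite to transcription 99 bases upstream of the inner of the 2 annotated starts of Six4, itself a SIX-family gene. That element, held by 85 of 21263 windows, lay in a peak of both lists and inside the SOX2 region of maximum signal. It is shown in capitals within 30 bases (chr12:73113325-73113354, minus strand).
Six4: tggcctggggGAAACCTGAtcggccagatc

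The windows also differed in CG dinucleotides, of which those of protein-coding genes held a median of 10. The outer window of Eya4, with SOX2 alone, had 35. Six2 had 26 and Eya3, without any peak at its start, 18. Dach1 and the inner Dach2 window had 13 each. All 9 windows were above the median, including the one where neither protein was listed.

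**Figure D1:**
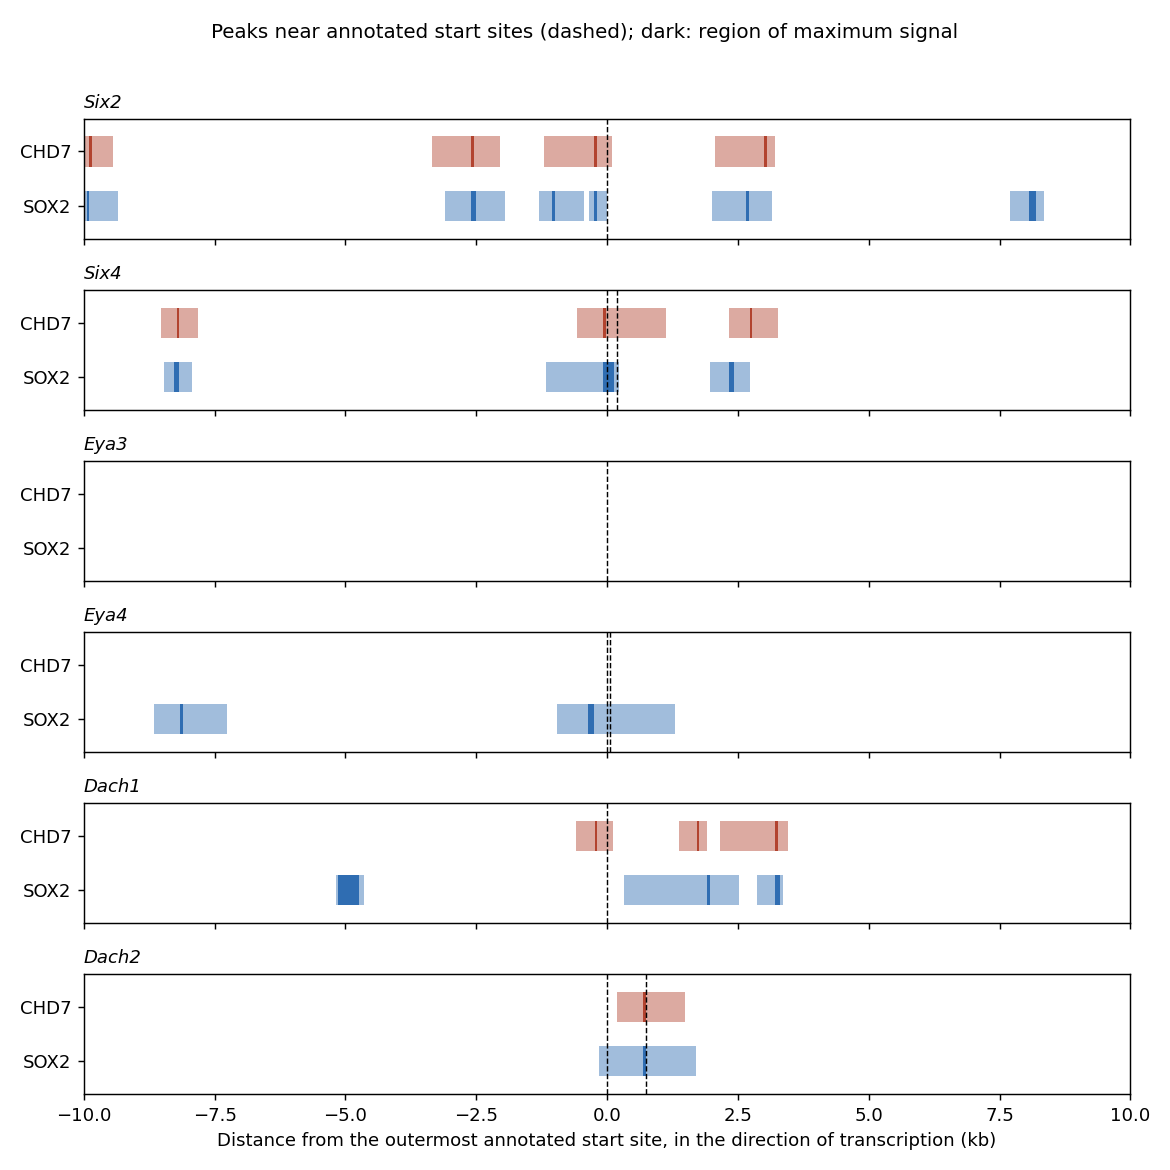
Peaks within 10 kb of the annotated start of the 6 members with a start site in RefSeq, with distance from the outermost start site in kb on the horizontal axis (direction of transcription to the right) and the CHD7 (red) and SOX2 (blue) lists as rows. Pale bars are peaks, dark bars their region of maximum signal and dashed lines start sites. Both lists meet at the starts of Six2, Six4 and Dach2, CHD7 alone covers that of Dach1, SOX2 alone that of Eya4, and the Eya3 panel is empty.

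Peak density separated the members widely. Per 100 kb of locus, CHD7 ranged from 0 at Eya4 to 7.87 at Six4, around a median over all protein-coding genes of 1.54 (quartiles 0.778 and 2.59). Six4, Six2 (7.17) and Eya2 (4.70) lay above the upper quartile, Eya1 (2.07) and Dach1 (0.828) between the quartiles, and Dach2 (0.626), Eya3 (0.538) and Eya4 below the lower quartile. SOX2 ranged from 1.88 at Dach2 to 15.9 at Six2, around a median of 7.41 (quartiles 4.81 and 10.9). Six2 and Eya2 (15.5) were above the upper quartile, and Dach1 (2.90), Eya4 (2.87) and Dach2 below the lower one. The median of the 8 members was 1.45 for CHD7 and 5.85 for SOX2, both below the median of all genes. The 6 EYA and DACH genes are long, and over the 2916 genes of at least 85.7 kb, the length of Eya3, the medians were 1.15 and 6.06. Of these 6 members Eya1 and Eya2 were above that CHD7 median and the others below it. Only Eya2 was above that SOX2 median. In numbers of peaks per locus the members' medians were 4.5 CHD7 and 13 SOX2 peaks, against 2 and 10 over all genes. Whether the group stood high or low thus depended on the measure. At least 1 CHD7 peak was present in the loci of 7 of the 8 members, against 82.9% of all genes, and at least 1 SOX2 peak in all 8, against 98.7%.

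**Figure D2:**
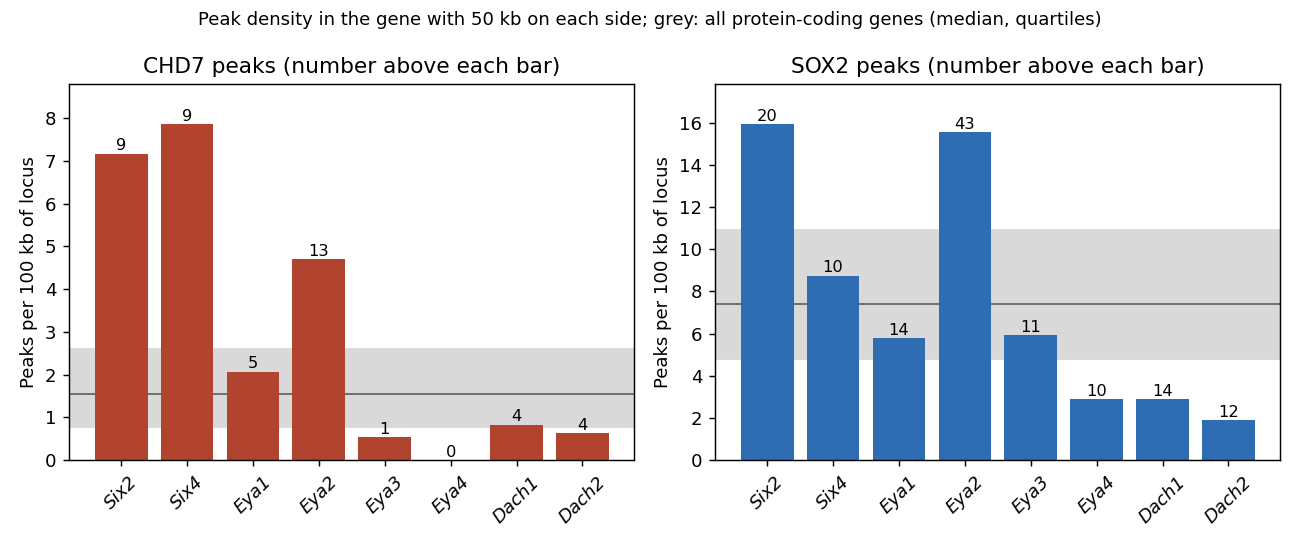
CHD7 (left) and SOX2 (right) peaks per 100 kb in the locus of each member, with the number of peaks above each bar; the grey line and band are the median and quartiles of 21887 protein-coding genes. Six2, Six4 and Eya2 stand above the CHD7 band and Six2 and Eya2 above the SOX2 band, while Eya4, Dach1 and Dach2 lie below the SOX2 band.

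Of the 45 CHD7 peaks 4 were at an end, 23 inside a gene and 18 in a flank. Of the 134 SOX2 peaks these places held 7, 76 and 51. The end windows cover only a small part of each locus under the rule. In the loci of Six2 and Six4, peaks were mostly in the flanks (13 of 18 CHD7 and 23 of 30 SOX2 peaks), whereas in Eya2 they were mostly inside the gene (10 of 13 and 32 of 43). Six2 and Six4 are short genes, at 25.5 kb for Six2 and 14.4 kb for Six4, and the other members run from 85.7 kb (Eya3) to 538.9 kb (Dach2). The flanks thus make up most of the Six2 and Six4 loci. Per 100 kb of gene body, with end peaks that reach into it, CHD7 had 11.8 peaks at Six2 and 13.9 at Six4. Over the whole locus it had 7.17 and 7.87. For SOX2 the body values were 15.7 and 13.9, against 15.9 and 8.74 over the locus. The body values rest on 2 to 4 peaks each.

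A CHD7 peak of these loci shared at least 1 base with a SOX2 peak in 32 of 45 cases, or 71.1% (exact Clopper-Pearson 95% interval 55.7% to 83.6%), against 65.3% of all CHD7 peaks, which lies inside that interval. In the other direction 32 of 134 SOX2 peaks, or 23.9% (16.9% to 32.0%), touched a CHD7 peak, against 14.7% of all SOX2 peaks. The intervals cover counting error only, and peaks of 1 locus are not independent. The members contributed unequally to the second share: 8 of 10 SOX2 peaks at Six4, 7 of 20 at Six2, 4 of 14 at Eya1, 7 of 43 at Eya2, 3 of 12 at Dach2, 2 of 14 at Dach1, 1 of 11 at Eya3 and 0 of 10 at Eya4. The fraction of SOX2 peaks lying on CHD7 thus ran from 80.0% at Six4 down to none at Eya4.

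Each shared CHD7 peak was set beside the strongest SOX2 peak on it. In 17 of the 32 pairs (53.1%) the centres of the regions of maximum signal were within 100 bases of each other, against 47.1% of all 21586 shared CHD7 peaks of the series. The median gap was 87.5 bases, against 125 over the series. In 3 pairs the centre was identical (Dach2 at its start, Eya1 and Eya2 inside the gene). The SOX2 partner had a higher standing in its list (the percent of peaks at or below it) than the CHD7 peak in its own in 26 of the 32 pairs (81.2%), against 80.0% over the series. The median standing was 56.6% for CHD7 and 77.3% for the SOX2 partners, against 60.3% and 86.6% over the series. The lists differ in length and the strongest partner was taken, so the 2 standings are on different scales, and the pairs of these loci were close to those of the series in this count.

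**Figure D3:**
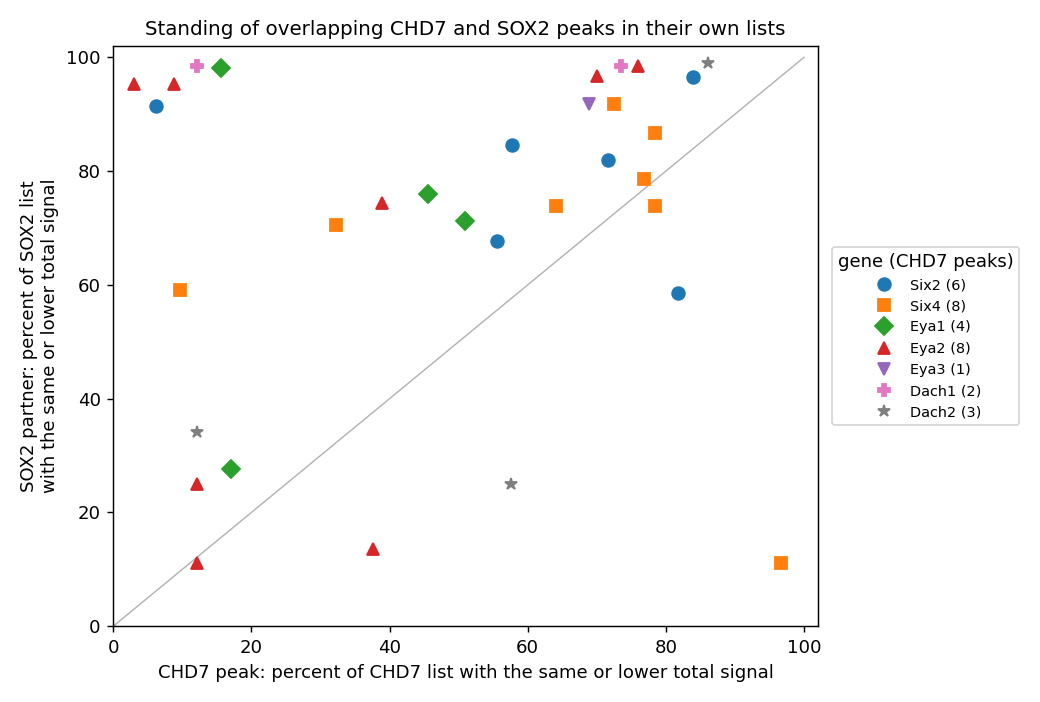
The 32 overlapping pairs, with the standing of the CHD7 peak in the CHD7 list on the horizontal axis and of its strongest SOX2 partner in the SOX2 list on the vertical axis, both as percent of the list with the same or lower total signal. Of these, 26 lie above the grey line of equal standing, and the orange square at the lower right is the wide CHD7 peak near Six4.

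Six2 encodes the factor that keeps nephron progenitors undifferentiated. Its locus (chromosome 17, gene at 85662736 to 85688254) held 20 SOX2 peaks and 9 CHD7 peaks, 6 of which were shared. At the start a CHD7 peak at 85688151 to 85689450 (total signal 1098, rank 6040) overlapped 2 SOX2 peaks, at 85688251 to 85688600 (762) and at 85688701 to 85689550 (1056). The long noncoding RNA gene CJ186046Rik has an end at the same place. The strongest pair of the locus was further upstream of the start, where CHD7 at 85697701 to 85698600 (1180, rank 5307) met SOX2 at 85697601 to 85698800 (3401, rank 5301). Another pair at 85690301 to 85691600 (CHD7, 870) and 85690201 to 85691350 (SOX2, 1525) lay between these places, so that pairs followed each other from the start of Six2 outward. The strongest SOX2 peak inside the gene, at 85685101 to 85686250 (2199), overlapped a CHD7 peak that was among the weakest of its list (446, rank 30982). The lower-coordinate flank contains Six3, the homeobox gene of the eye and forebrain. Of the 9 CHD7 peaks 4 lay in or at the end of Six3, and 5 remained without them.

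Six4, whose protein acts with its relatives in muscle and kidney development, had the highest CHD7 density of the members, above that of 99.3% of protein-coding genes. Its locus (chromosome 12, gene at 73099609 to 73114031) held 9 CHD7 and 10 SOX2 peaks, and 8 peaks of each list were shared. This made 1.11 SOX2 peaks for each CHD7 peak, where the 6 other members with CHD7 peaks had from 2.22 (Six2) to 11 (Eya3). At the start CHD7 at 73112301 to 73114000 (888, rank 9082) overlapped SOX2 at 73113201 to 73114600 (2229, rank 12713) over 800 bases. Mnat1, which encodes a subunit of the CDK-activating kinase complex, overlaps the same end of Six4. The CHD7 peak also counts as an end peak of Mnat1 and the SOX2 peak lies inside it, so neither can be assigned to Six4 alone. Without peaks at other protein-coding genes Six4 kept 6 of its 9 CHD7 and 6 of its 10 SOX2 peaks. The strongest CHD7 peak of all members lay in the lower-coordinate flank of Six4, at 73075851 to 73080000 (2655, rank 1087). It was 4150 bases wide, as wide as or wider than 99.7% of CHD7 peaks, with a maximum signal of 1.64. A CHD7 peak of 450 bases in the same flank, at 73073901 to 73074350, had a lower total signal (1134) but a maximum of 7.38. The rank of the wide peak thus goes with its width. The SOX2 peak on the wide peak was weak (792, rank 138321). By total signal this place was therefore high in the CHD7 list and low in the SOX2 list. A group of 3 pairs lay near the outer border of the same flank, with CHD7 peaks at 73049651 to 73051350 (1007), 73051851 to 73053000 (970) and 73053401 to 73054750 (774), each with a SOX2 partner of total signal 1290 to 1759.

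Eya1 had a SOX2 peak but no CHD7 peak at an end. In its locus (chromosome 1, gene at 14168953 to 14311035) lay 5 CHD7 peaks, of which 4 were shared, and 14 SOX2 peaks. The end peak, at 14309651 to 14310150 (1173, rank 50094), was 885 bases from the higher-coordinate border and is not in the 500-base window. The strongest SOX2 peak of the locus was inside the gene, with its maximum 97.3 kb from the lower-coordinate end, at 14265801 to 14266500 (4516, rank 2923). A CHD7 peak at 14265901 to 14266450 lay entirely within it, with its maximum on the same bases, but it was weak (478, rank 27890). A further 2 pairs were in the gene, with CHD7 at 14186851 to 14187650 (619) on SOX2 at 14187101 to 14187650 (1349), and CHD7 at 14304001 to 14305600 (656) on SOX2 at 14304101 to 14305400 (1261). The next SOX2 peak inside Eya1 by total signal, at 14239051 to 14240000 (2287), had no CHD7 peak on it. Every CHD7 peak of Eya1 was thus at or below about the middle of its list, the strongest having 51.0% of the list at or below it.

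Eya2 had no peak at either end and the largest number of peaks inside. Its locus (chromosome 2, gene at 165595028 to 165771727) held 13 CHD7 and 43 SOX2 peaks. Its gene body had 5.66 peaks per 100 kb for CHD7 and 18.1 for SOX2, against medians of 1.04 and 5.66 over the 2916 protein-coding genes of at least 85.7 kb, the length of Eya3. The strongest pair had its maxima 49.9 kb from the lower-coordinate end, with CHD7 at 165644801 to 165645650 (952, rank 7963) inside SOX2 at 165644551 to 165645800 (4926, rank 2447). A second pair, CHD7 at 165614851 to 165615400 (847) and SOX2 at 165614651 to 165615300 (3460), had strong SOX2 peaks close by. Of these, the ones at 165615501 to 165616400 (3108, rank 6413) and at 165619651 to 165620200 (2346), had no CHD7 peak on them. A wide SOX2 peak at 165675751 to 165677500 (2932) held 2 CHD7 peaks that were both close to the lowest of their list (455 and 437). In all 8 of the 13 CHD7 peaks were shared. The neighbouring gene Zmynd8, which encodes a chromatin reader protein and lies 12425 bases away, had 2 SOX2 peaks and no CHD7 peak at its ends.

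Eya3, whose protein also acts in the DNA damage response, had 1 CHD7 peak in a locus of 185.7 kb. The peak, at chromosome 4, 132676201 to 132677050 (829, rank 10293), was inside the gene, its maximum 37.4 kb from the lower-coordinate border, near which the start lies. It lay wholly within a SOX2 peak at 132675851 to 132677100 (2229, rank 12713), and the centres of both maxima were 25 bases apart. The other 10 SOX2 peaks of the locus had no CHD7 peak on them. The strongest of these, at 132768051 to 132768850 (2434), was at an end of Rpa2, a replication protein gene in the flank, and 6 SOX2 peaks remained without those on neighbouring protein-coding genes. The nearest SOX2 peak to a border of Eya3 (792) was 1865 bases from the higher-coordinate border and outside the 1 kb window. That of Eya1, at 885 bases, was just inside. From the lower-coordinate border of Eya3, near which the start lies, the nearest SOX2 peak was 36826 bases away.

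Eya4 was the member without a CHD7 peak. Its locus of 347.9 kb on chromosome 10 (gene at 23102962 to 23350838) held 10 SOX2 peaks, and the nearest CHD7 peak was 77.3 kb from the gene, outside the flank. Of the 11785 protein-coding genes with at least 10 SOX2 peaks in the locus, 6.14% had no CHD7 peak there, and of the 2916 genes of at least 85.7 kb 4.84% had none. Yet the SOX2 peak at the start of Eya4, at 23348651 to 23350900, was among the strongest of the members (4780, rank 2610) and wide, at 2250 bases. A further SOX2 peak lay upstream at 23357201 to 23358600 (1759). The remaining 8 had total signals of 792 to 1466, so the start stood well apart from the rest of the locus in total signal. In maximum signal it did not. The wide start peak had a maximum of 4.69. Narrow SOX2 peaks inside the gene, at 23243151 to 23243300 and at 23249801 to 23250050, had maxima of 11.1 and 8.80.

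Dach1 had its strongest peak of each list near its annotated start. In its locus (chromosome 14, gene at 97786846 to 98169765) there were 4 CHD7 and 14 SOX2 peaks. Of the CHD7 peaks 3 were close to the annotated start, at 98166301 to 98167600 (902, rank 8753), 98167851 to 98168400 (465) and 98169651 to 98170350 (633). SOX2 at 98167251 to 98169450 (4985, rank 2408) overlapped the peaks of total signal 902 and 465, but stopped 315 bases short of the start site, which the CHD7 peak of 633 covered. A weaker SOX2 peak at 98166401 to 98166900 (1114) lay within the CHD7 peak of 902. The gene thus counts as having both proteins at its end although the end peaks themselves do not overlap. The long noncoding RNA gene Gm33583 also has an end there. The remaining CHD7 peak, at 97819401 to 97819750 (788), was towards the other end of the gene and unshared. The 12 remaining SOX2 peaks beside the 2 shared ones had total signals of at most 1290, and from the SOX2 peak ending at 98085950 up to 98166301 no peak of either list was found.

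Dach2 had the strongest SOX2 peak of all members. On the X chromosome (gene at 113297496 to 113836386) 4 CHD7 and 12 SOX2 peaks were spread over 638.9 kb, giving the lowest SOX2 density of the members, with 4.54% of protein-coding genes below it. At the start SOX2 at 113297351 to 113299200 (5952, rank 1655) enclosed CHD7 at 113297701 to 113299000 (1284, rank 4589), which was the second strongest CHD7 peak of the 8 genes. Their maxima were on the same 50 bases, part of which is shown in capitals above, just before the inner start site. Inside the gene, far from the start, 2 further pairs were found, with CHD7 at 113603951 to 113604500 (465) and at 113744351 to 113745500 (710). These CHD7 peaks had 12.1% and 57.7% of their list at or below them. Their SOX2 partners (880 and 821) had 34.1% and 25.1%. Another CHD7 peak at 113688951 to 113689650 (583) was unshared.

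**Figure D4:**
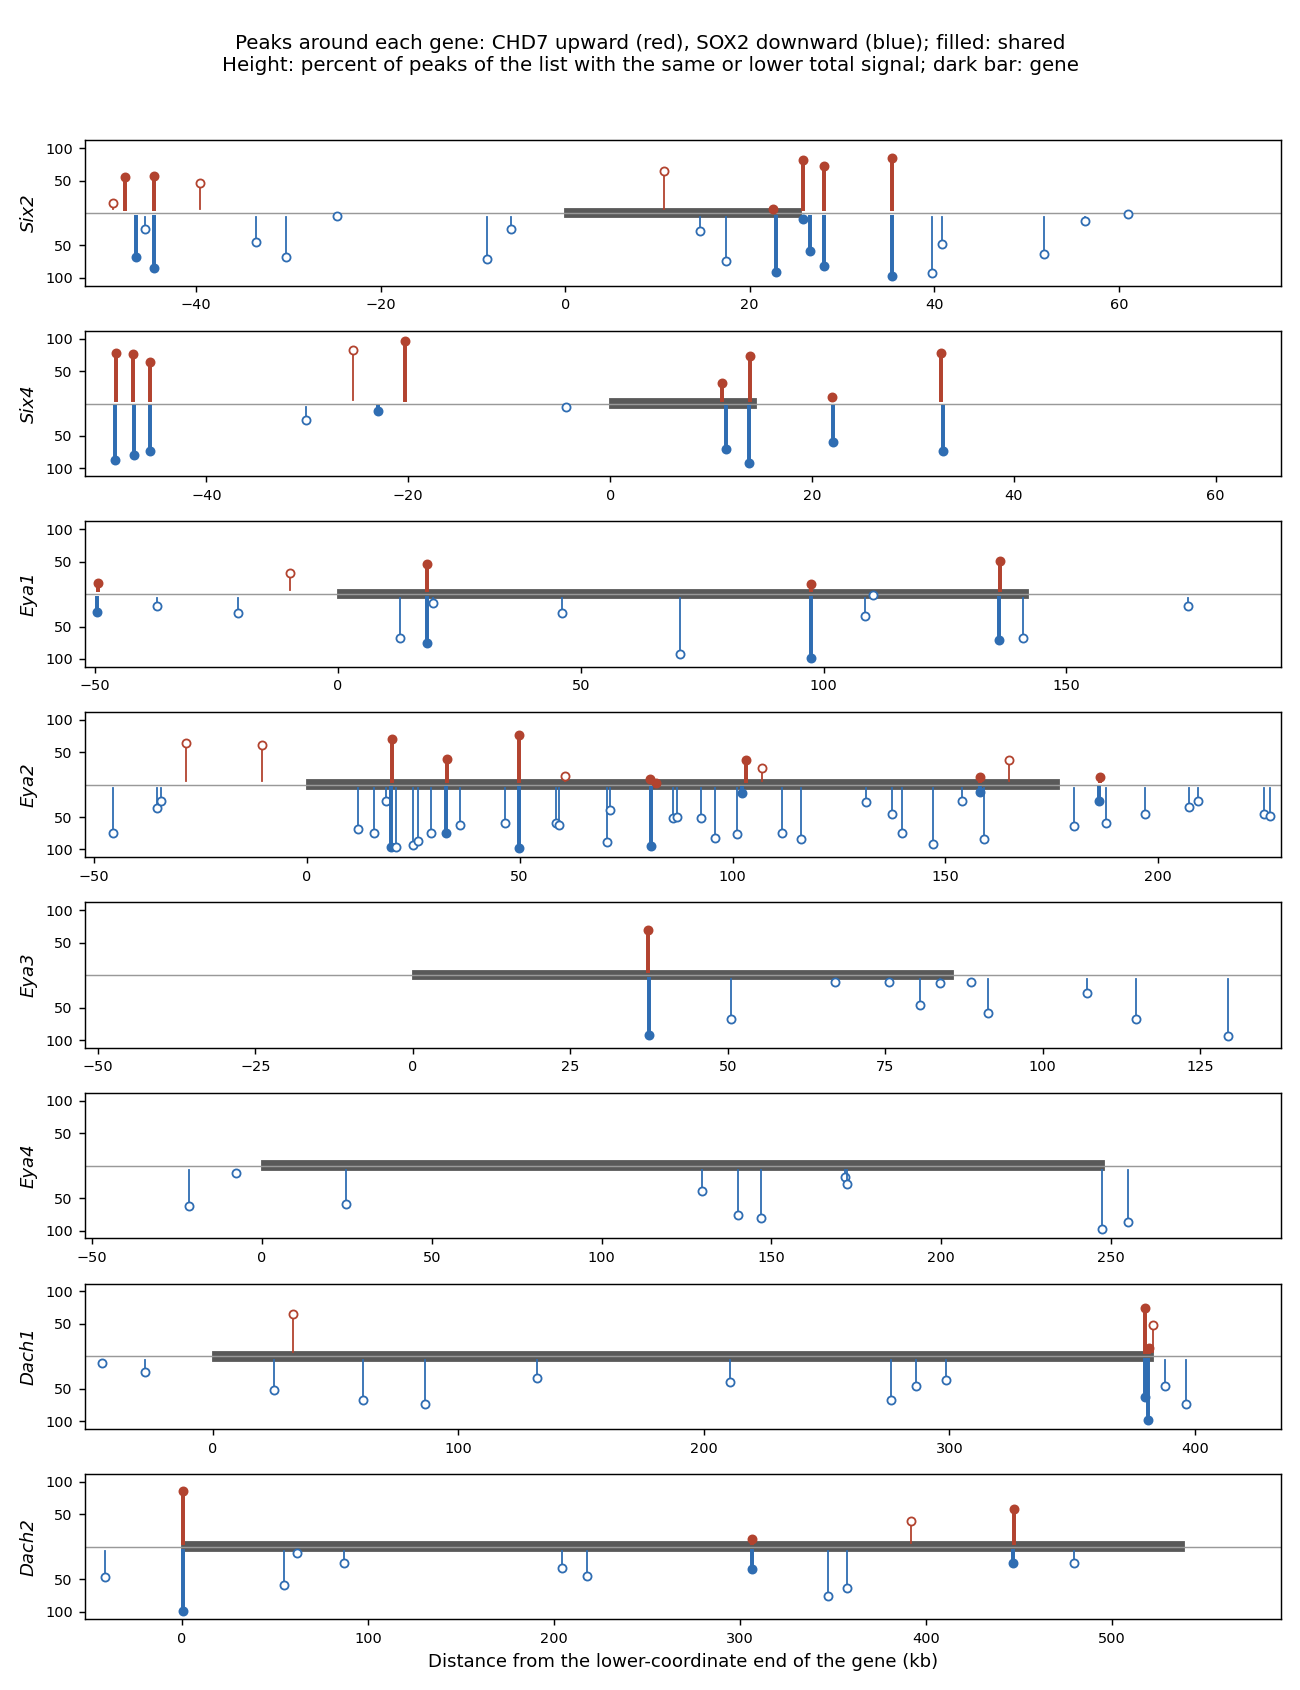
Peaks of the 8 loci, with distance from the lower-coordinate end of each gene in kb on the horizontal axis (each panel has its own scale, the dark bar is the gene) and the percent of peaks in the same list with equal or lower total signal as height, CHD7 upward in red and SOX2 downward in blue; filled points are shared peaks. Eya2 is covered along its length, Dach2 and Eya4 have their tallest SOX2 points at the start and Dach1 near it, and Eya4 has no CHD7 point.

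The count of strong peaks depended on how strong was defined. Of the 134 SOX2 peaks 17 were among the strongest 10% of their list, 6 of them at Eya2 and 3 at Six2. Of the 45 CHD7 peaks 1 was, the wide peak near Six4. With the 10000 strongest of the 33035 CHD7 peaks and of the 155548 SOX2 peaks, 13 of the 45 CHD7 and 9 of the 134 SOX2 peaks were kept. The same number is a much larger part of the shorter CHD7 list. The order of these 2 counts is therefore not read as a trait of these loci. Of those CHD7 peaks 6 were at Six4, where no SOX2 peak was among the 10000 strongest, and of those SOX2 peaks 4 were at Eya2. The highest SOX2 ranks were at the starts of Dach2 (1655) and Eya4 (2610), near that of Dach1 (2408), and inside Eya2 (2447) and Eya1 (2923). These 5 peaks were the strongest SOX2 peaks of all members. The best SOX2 ranks of Six2 and Six4 were lower, at 5301 for Six2 and 12713 for Six4.

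The borders of the rule decided some peaks. At Six4 the outermost CHD7 peak inside the 50 kb flank was 48.3 kb from the gene (total signal 1007), and the next one outside was 52.4 kb away (1243). At Eya1 these distances were 49.0 kb (483) and 53.4 kb (1134). At both genes the CHD7 peak just beyond the border was thus stronger than the outermost one counted.

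Other genes of the network carried the proteins at their ends as follows. Of 35 partner genes CHD7 was at 15, SOX2 at 28, both at 15 and neither at 7, while 30.8%, 59.7% and 28.3% of all genes had CHD7, SOX2 and both. Among the 12 relatives and cofactors of the members CHD7 was at 10 and SOX2 at 11. They included the Groucho corepressor genes Tle3 (total signal summed over end peaks, CHD7 4850 and SOX2 9178), Tle1 (2569 and 9149) and Tle4 (3630 and 6392), and the DACH relatives Skil (1940 and 5806) and Ski (1466 and 6920). Tle2 had SOX2 alone, and Sobp, which encodes a cofactor of SIX-family proteins needed for the cochlea, had neither. Of 8 otic factors upstream of or parallel to the network CHD7 was at 2 (Foxi3 and Sall1) and SOX2 at 5, and Pax2, Pax8 and Foxi1 had neither. Of 15 genes known to act downstream CHD7 was at 3 (Sox2, Neurog1 and Myc) and SOX2 at 12. Sox2, the gene of the profiled factor itself, had summed end signals of 1471 and 4076. Relatives and cofactors of the members thus made up 10 of the 15 partner genes with CHD7 at an end.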

How the data were processed

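CUT&Tag was done on cells of pooled otocysts, with 1 library per antibody, per the labels' protocols. Per the submitters' processing notes, which name no steps, Bowtie2, deepTools and SEACR were used with build mm10. Not given in the sources used here: versions, settings, signal scaling and any use of the control. The peak lists as deposited give each peak's total and maximum coverage signal in bins of 50 bases. Coordinates were converted to count from 1.

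Gene borders came from a RefSeq table (GRCm38.p6) of 21887 protein-coding genes, and start sites, strands and sequences from RefSeq promoter windows, which hold 6 of the 8 members. Exons and introns were not told apart. A gene end is 1 kb around either outer border; a peak was classed as end, inside or flank, in that order. Peaks were shared when they had at least 1 base in common. All members were named, with every end peak, their strongest peaks and pairs. Partner genes were named by rule, at most 6 with both proteins at an end, ranked by the worse rank of summed end signal, and at most 3 with neither; others named there were chosen after their values were seen. Members and lists were chosen with earlier results of these data known. No test was run. The overlap counting was tested on simulated data. Alternatives were other windows, flanks, peak sets and overlap rules. Tables were handled with pandas 2.3.3 and numpy 2.4.6 in Python 3.11.15, intervals computed with scipy 1.17.1 and plots drawn with matplotlib 3.10.9.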

Additional observations from a re-analysis of the deposited data

How the results depend on the processing

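The counts of members with an end peak depended little on the window: with 500 bases or 2 kb CHD7 stayed at 4 and both at 4, while SOX2 was 5 and 7. With the 10000 strongest peaks of each list SOX2 was at 3 members and both at 1. Peaks in the loci numbered 23 (CHD7) and 74 (SOX2) with the stronger 50% of each list, and 13 and 9 with the 10000 strongest. The shared percentage of CHD7 peaks was 38.5% (5 of 13) with the 10000 strongest peaks, 55.6% with at least 50% of the CHD7 peak covered and 33.3% when the maximum-signal regions had to share a base. The smaller sets hold fewer peaks by construction. The end counts and shared percentages under these settings were not computed over all genes or all CHD7 peaks. Whether they are low or high for the series is therefore not known. With 20 or 100 kb flanks the shared percentage was 74.3% and 69.4%. Added after seeing the data, leaving out peaks at other protein-coding genes gave 38 CHD7 and 116 SOX2 peaks, with 71.1% shared. Also added then, 1 kb around annotated start sites gave 4 members with CHD7 and 5 with SOX2. Only the 6 members with a listed start site could count there. Eya1, which has a SOX2 end peak, and Eya2 could not. No paired analysis was possible because each antibody has 1 library.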
